A study of Mus musculus with 2 samples.

Results

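The 8 genes described here are 4 claudins (Cldn3, Cldn4, Cldn6 and Cldn7), the keratin gene Krt18, the cadherin gene Cdh2 and the transcriptional repressor genes Zeb1 and Snai1. They were chosen by symbol, with their differences between the conditions already known, out of 886 genes in the authors' deposited table, and all 8 symbols were found in it. The cells were 46C mouse embryonic stem cells, a line with a green fluorescent reporter in the neural gene Sox1, kept in medium with serum and the cytokine LIF. Cells of 1 condition overexpressed the Flag tag alone and those of the other Flag-tagged Prdm14, a PR-domain regulator of pluripotency. The labels give 1 sample per condition. Both conditions share the cell line, the medium and the tag. The design text names gadd45g in place of Prdm14; in the authors' deposited table Prdm14 stood at 3.296 TPM in Flag cells and 399 TPM in Prdm14 cells, and Gadd45g at 21.6 and 3.57 TPM.

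Claudins are membrane proteins that form the strands of tight junctions, which seal the space between neighbouring epithelial cells. Keratin 18 pairs with keratin 8 in the intermediate filaments of simple epithelia. In the epithelial to mesenchymal transition, cells lose such junctions, and the zinc finger proteins Snai1 and Zeb1 repress junction genes by binding E-boxes, short DNA motifs, of the form CAGGTG, whose other strand reads CACCTG, while N-cadherin, the product of Cdh2, is a mesenchymal and neural adhesion protein. Embryonic stem cells are themselves epithelial in character.

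Of the 8 genes, 7 were lower and 1, Zeb1, was higher in the Prdm14 cells than in the Flag cells. Over all listed genes, 47.2% were lower and 52.8% were higher. These directions and the folds below chose the genes and are a description, with no test. Each level is the authors' mean TPM, a length-scaled share of the transcripts in a library, with no value per replicate, no error and an unknown read depth. Folds are ratios of these means, and none has a replicate check. The table is itself a selection: its smallest absolute log2 fold change is 1.00, and a gene outside it has no value here. In such bulk RNA, fewer cells that express a gene and less RNA per cell cannot be told apart.

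**Figure D1:**
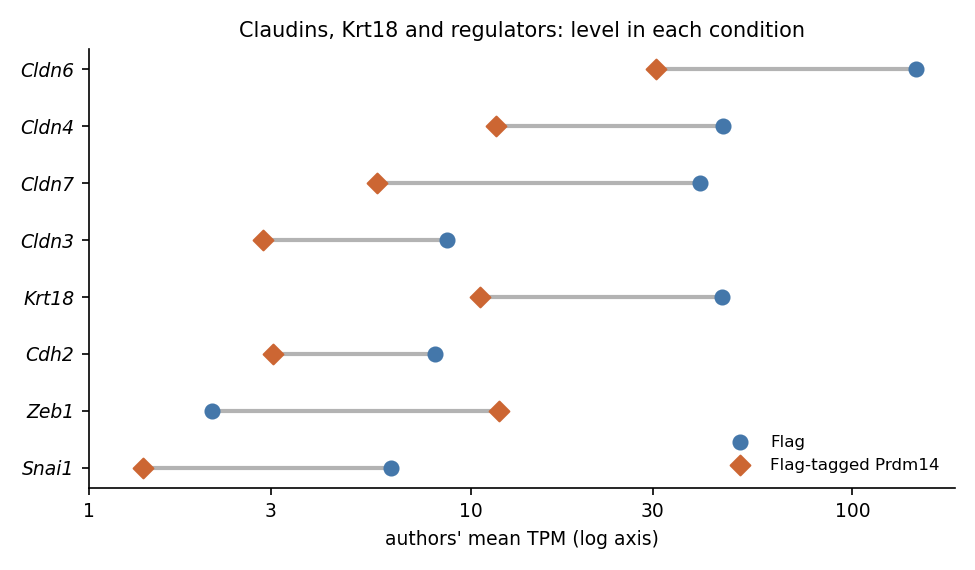
Authors' mean TPM (log axis) of each of the 8 genes in Flag cells (circles) and in cells with Flag-tagged Prdm14 (diamonds); a grey line joins the values of a gene, and no error could be drawn. The diamond lies left of the circle for 7 genes and right of it for Zeb1, which goes from 2.102 to 11.9 TPM.

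All 4 claudin genes in the table were lower in the Prdm14 cells. Their summed level was 241 TPM in Flag cells and 50.8 TPM in Prdm14 cells, 4.75-fold lower. The other 19 of the 23 claudin genes in the annotation are outside the table and have no value here.

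Cldn6 (ENSMUSG00000023906, chromosome 17, 23679249 to 23682446, plus strand), a claudin of early embryonic epithelia, had the highest level of the 8 genes in both conditions. It stood at 146.9 TPM in Flag cells and 30.6 TPM in Prdm14 cells, 4.801-fold lower. Among the 886 listed genes it ranked 25 by level in Flag cells and 176 in Prdm14 cells. Its q-value in the authors' deposited table, from a test that the sources used here do not give, was 1.85e-71, the smallest of the 8 genes.

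Cldn4 (ENSMUSG00000047501, chromosome 5, 134945119 to 134946934, minus strand) is a claudin of tight epithelia. It stood at 45.9 TPM in Flag cells and 11.7 TPM in Prdm14 cells, 3.93-fold lower. Cldn7 (ENSMUSG00000018569, chromosome 11, 69964779 to 69967885, plus strand), a claudin also found along the lateral membrane of epithelial cells, stood at 39.9 and 5.67 TPM, 7.04-fold lower. This was the largest fold of the 8 genes, at rank 78 among the 418 lower genes.

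Cldn3 (ENSMUSG00000070473, chromosome 5, 134986214 to 134987472, plus strand), a sealing claudin, had the lowest level of the 4. It stood at 8.65 TPM in Flag cells and 2.86 TPM in Prdm14 cells, 3.02-fold lower. Its level in Flag cells was near 9.15 TPM, the median of all listed genes in that condition. An antisense gene, Wbscr25, overlaps Cldn3, and whether reads were counted by strand is not given in the sources used here, so its value is uncertain.

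The order of the 4 claudins by level was the same in both conditions: Cldn6, Cldn4, Cldn7, Cldn3. Cldn6 made up 60.9% of their summed TPM in Flag cells and 60.2% in Prdm14 cells. The share of Cldn7 was 16.5% and 11.2%, that of Cldn4 19.0% and 22.997%, and that of Cldn3 3.58% and 5.63%. Without a spread, whether neighbours in this order differ, such as Cldn4 and Cldn7 in Flag cells, was not testable.

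Cldn3 and Cldn4 are neighbours on chromosome 5, on opposite strands with 39279 bases between them and no other protein-coding gene in that gap. Each has a single exonic block, of 1259 and 1816 bases. On the other side of Cldn4, 2481 bases away, lies Mettl27, a methyltransferase-like gene that was also lower, at 21.02 TPM in Flag cells and 6.45 TPM in Prdm14 cells, 3.26-fold. These 3 successive protein-coding genes are in the table, all lower, against 47.2% of all listed genes. Cldn4 and Cldn3 were chosen with their lower values known, so nothing is read from this run. Abhd11, the next protein-coding gene beyond Cldn3, is outside the table. Cldn9, which lies 137 bases beyond the end of Cldn6 on the other strand, is outside the table.

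The coding sequences of the 4 claudins, 633 to 660 bases long, were 60.6% to 73.5% identical between pairs. The most alike pair was Cldn4 and Cldn3, the neighbours, and the least alike Cldn6 and Cldn7.

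Krt18 (ENSMUSG00000023043, chromosome 15, 102028180 to 102032027, plus strand) had levels close to those of Cldn4. It stood at 45.4 TPM in Flag cells and 10.6 TPM in Prdm14 cells, 4.298-fold lower. Its partner gene Krt8 is the next protein-coding gene, 23697 bases away, and is outside the table. One other of the 50 keratin genes in the annotation was listed: Krt19, a keratin of simple epithelia, stood at 12.8 and 6.29 TPM, 2.04-fold lower and close to the table's smallest difference.

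The regulators and the cadherin did not move as a group. Snai1 (ENSMUSG00000042821, chromosome 2, 167538195 to 167542814, plus strand), which represses E-cadherin and other junction genes, stood at 6.19 TPM in Flag cells and 1.39 TPM in Prdm14 cells, 4.45-fold lower. Zeb1 (ENSMUSG00000024238, chromosome 18, 5591860 to 5775467, plus strand) stood at 2.102 and 11.9 TPM, 5.65-fold higher, at rank 40 among the 468 higher genes. In Flag cells the Snai1 level was above the Zeb1 level, and in Prdm14 cells it was below.

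Cdh2 (ENSMUSG00000024304, chromosome 18, 16588877 to 16809246, minus strand) stood at 8.05 TPM in Flag cells and 3.03 TPM in Prdm14 cells, 2.66-fold lower, the smallest fold of the 8 genes. It was the one listed gene of 23 named cadherins. Genes on the opposite strand overlap Cdh2 (Gm15485) and Zeb1 (Gm10125 and Gm16147), and the microRNA gene Gm22709 lies within Zeb1 on its own strand, so both values are uncertain. Snai2, Snai3, Zeb2, Twist1 and Twist2, the other repressors of these families, are outside the table.

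Beside the whole table, the median fold of all lower genes was 3.03, and 5 of the 7 lower genes described here were above it. At least 4-fold lower were Cldn7, Cldn6, Snai1 and Krt18, 4 of the 8 genes, against 16.4% of all listed genes. At least 4-fold higher was Zeb1, 1 of the 8, against 8.69%. The genes were picked from this same contrast, so nothing is read from these shares.

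**Figure D2:**
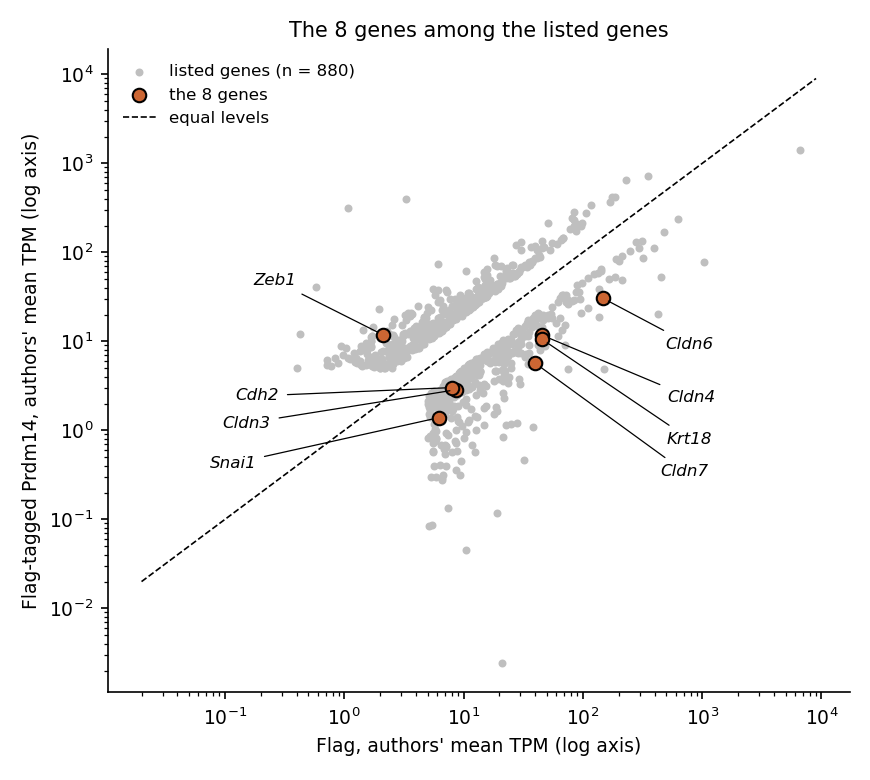
Authors' mean TPM in Flag cells (horizontal, log axis) against that in Prdm14 cells (vertical, log axis) for 880 listed genes (grey; 6 genes at the table's floor are left out) and the 8 genes (orange); the dashed line marks equal levels, and the empty band along it is the table's own selection. The 7 lower genes lie below the line within the cloud of other lower genes, Cldn6 at the highest levels, and Zeb1 lies above it.

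From a list of 30 epithelial genes and regulators that holds none of the 8 genes, 10 were in the table, 8 lower and 2 higher, and the other 20 have no value here. The median log2 fold change of those 10 was -1.83. Over all listed genes 47.2% were lower, and the median log2 fold change was 1.03. No listed gene has an absolute log2 fold change below 1.00, so such a median jumps with the more frequent direction. Among the lower genes alone, the median fold was 3.03. The list was written with earlier results of these data known, so its count is a description.

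Lad1, which encodes ladinin, an anchoring filament protein of basement membranes, had the largest fold of that list, from 29.6 TPM in Flag cells to 3.28 TPM in Prdm14 cells, 9.001-fold lower. Mal2, a protein of apical transport, stood at 5.898 and 0.813 TPM, 7.25-fold lower. Rab25, a small GTPase of epithelial recycling endosomes, stood at 22.9 and 3.79 TPM, 6.06-fold lower. Prss8, the membrane-anchored protease prostasin, stood at 11.03 and 2.95 TPM, 3.73-fold lower.

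Of the remaining 6 listed genes, Krt19 is given above, and the rule for naming genes did not take the other 5, which are named after their values were seen. Esrp1, which directs epithelial splicing, stood at 59.1 and 16.1 TPM, 3.66-fold lower. Ap1m2, the epithelial subunit of a sorting adaptor, was 3.44-fold lower and Grhl2, a transcription factor of epithelial genes, 2.72-fold lower. The higher ones were the transcription factor genes Grhl3, at 9.55 and 20.5 TPM, and Klf5, at 86.8 and 173.98 TPM, so the related genes Grhl2 and Grhl3 went opposite ways.

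Of 27 genes for tight junctions and polarity, 3 were listed, 2 lower and 1 higher. Over all listed genes 47.2% were lower, and nothing is read from so few genes. Cgnl1, which encodes the junction plaque protein paracingulin, stood at 33.6 TPM in Flag cells and 7.23 TPM in Prdm14 cells, 4.65-fold lower. Marveld2, the tricellular junction protein tricellulin, was 2.22-fold lower. The junctional adhesion molecule gene Jam2 stood at 37.4 and 79.2 TPM, 2.12-fold higher. From a list of 24 genes for adherens junctions and desmosomes, E-cadherin among them, none was in the table, and these have no value here. The lists do not hold every junction gene, so the counts are for the lists alone.

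Of 34 mesenchymal genes, 2 were listed, 1 in each direction, beside 47.2% lower and 52.8% higher over all listed genes. Tagln, an actin-binding protein of smooth muscle, stood at 5.91 and 1.23 TPM, 4.79-fold lower. The integrin subunit gene Itgav stood at 6.09 and 12.6 TPM, 2.07-fold higher. With Cdh2, Snai1 and Zeb1, the listed genes tied to the mesenchymal state thus went both ways.

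**Figure D3:**
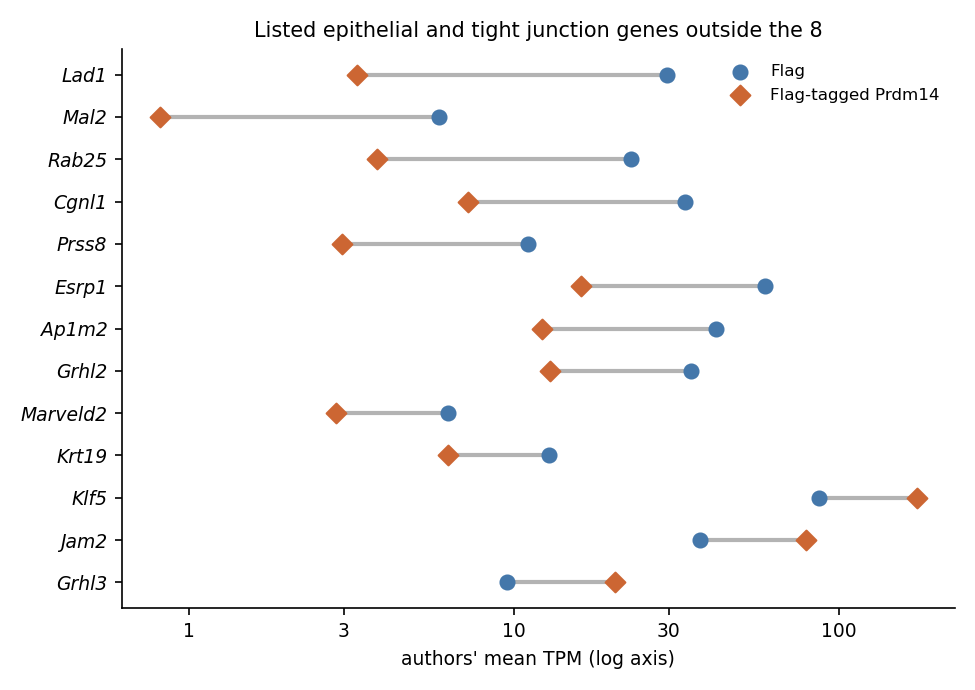
Authors' mean TPM (log axis) in Flag cells (circles) and Prdm14 cells (diamonds) of the 13 genes from the epithelial and tight junction lists that are in the table; no error could be drawn. The 10 upper genes are lower in Prdm14 cells, Lad1 by 9.001-fold, and Klf5, Jam2 and Grhl3 are higher.

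Markers of the labelled cell type and of other cell types were also looked up, and those in the table went both ways. Over all listed genes, 52.8% were higher and 47.2% were lower. Of 15 embryonic stem cell markers, 6 were listed, all higher, with a summed level of 478 TPM in Flag cells and 1413 TPM in Prdm14 cells. Tbx3 was 5.98-fold, Tfcp2l1 3.94-fold, Klf4 3.56-fold and Nanog 2.94-fold higher. Of 18 primitive endoderm markers, 4 were listed, all lower, with sums of 39.3 and 6.19 TPM: Cubn, Dab2, Col4a2 and Lama1, the first 2 of them 54.8-fold and 11.7-fold lower. Cubn stood at 7.36 TPM in Flag cells and 0.134 TPM in Prdm14 cells, so its fold rests on a very low level and its size is uncertain.

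Krt18 and Krt19 are also trophoblast markers. Of the 16 trophoblast markers on the list, 4 were in the table: those 2 were lower, while the transcription factor genes Tead4 and Tfap2c were 2.77-fold and 2.38-fold higher. The summed level of the 4 was 74.2 TPM in Flag cells and 57.8 TPM in Prdm14 cells. Of 12 neuroectoderm markers, Cdh2 and Sox3 were listed, both lower (18.9 and 8.39 TPM summed). Sox3 was 2.02-fold lower, close to the table's smallest difference. The marker lists do not hold every gene of a cell type, so the counts are for the lists alone. Snai1 was the one listed gene of 13 primitive streak and mesoderm markers, and Tagln of 12 fibroblast markers. No listed marker was at 0 in either condition, and the defining markers outside the table have no value here. The part of other cell types in the lower claudin and Krt18 levels was not tested.

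Because Zeb1 and Snai1 are known to bind CAGGTG E-boxes and the claudins and Krt18 were lower together, the promoters were searched for that motif. RefSeq promoter windows (GRCm38.p6, the mm10 build) of 300 bases, from 250 before to 50 after each annotated transcription start, were found for 6 of the 8 genes, with 2 starts for Cldn7. Cdh2 and Zeb1 had no entry, so all 6 genes searched were lower genes. The motif, read on both strands, was present in a window of 6 of 6 genes and in 6 of 7 windows, the exception being the window of the first Cldn7 start (position 69964779). Of all 32851 windows, 20.2% held it, and by gene 22.6% of 27025 genes and 27.8% of the 645 listed genes with a window. The motif was chosen with the directions known, so nothing is read from these shares.

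The matches are printed with up to 12 bases on each side, 5′ to 3′ on the strand of the gene, with CAGGTG, or its other strand, in capitals. They are shown as a description, and a part of Zeb1 or Snai1 in the lower levels was not tested.
Cldn6, chr17:23679260-23679289: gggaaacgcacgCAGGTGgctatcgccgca
Cldn6, chr17:23679393-23679414: cagtctcttttgCAGGTGagcc
Cldn4, chr5:134946931-134946960: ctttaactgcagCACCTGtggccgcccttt
Cldn4, chr5:134946906-134946935: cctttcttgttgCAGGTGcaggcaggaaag
Cldn7, chr11:69965312-69965341: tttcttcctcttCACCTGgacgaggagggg
Cldn7, chr11:69965352-69965381: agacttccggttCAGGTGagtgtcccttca
Cldn3, chr5:134986233-134986262: caaagccacaggCAGGTGcaggggcagtct
Krt18, chr15:102027990-102028019: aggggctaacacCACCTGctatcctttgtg
Snai1, chr2:167538057-167538086: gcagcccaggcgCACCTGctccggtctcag

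Cldn4 held a match on each side of its start, from -14 to -9 and from +12 to +17, counting from +1 at the RefSeq start. The Cldn3 match lay after the start, from +32 to +37. The Cldn7 matches lay from -97 to -92 and from -57 to -52 of the second start (position 69965421), inside or at the end of an exon of a longer GENCODE transcript. The Cldn6 matches lay from -93 to -88, within a GENCODE exon that begins further upstream, and from +41 to +46. The second Cldn7 match and the second Cldn6 match each run across the end of an annotated exon, where the letters of a splice donor also stand.

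Krt18 held its match from -214 to -209 and Snai1 from -126 to -121, both upstream of the annotated gene. The stretches of 250 bases before the start of Cldn4 and of Snai1 are given in full, as an epithelial gene and a repressor that were both lower. Capitals again mark CAGGTG or its other strand; the Cldn4 stretch also holds a CANNTG match of other letters, from -221 to -216, left in lower case.
Cldn4, chr5:134946935-134947184, minus strand: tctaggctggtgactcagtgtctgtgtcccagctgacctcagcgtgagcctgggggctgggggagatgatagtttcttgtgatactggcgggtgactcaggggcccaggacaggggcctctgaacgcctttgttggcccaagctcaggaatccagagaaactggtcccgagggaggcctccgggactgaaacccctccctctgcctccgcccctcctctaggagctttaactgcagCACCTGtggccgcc
Snai1, chr2:167537945-167538194, plus strand: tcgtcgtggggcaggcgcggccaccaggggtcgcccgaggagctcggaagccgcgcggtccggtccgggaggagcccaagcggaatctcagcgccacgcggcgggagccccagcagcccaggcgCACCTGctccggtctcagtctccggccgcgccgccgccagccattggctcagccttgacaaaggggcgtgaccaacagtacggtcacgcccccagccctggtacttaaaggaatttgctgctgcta

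The Snai1 stretch is 70.0% G and C and the Cldn4 stretch 62.0%. In the 300-base windows the shares are 70.0% and 61.0%, against a median of 52.7% over all windows. The windows of Cldn6, at 52.3%, and of the first Cldn7 start, at 52.0%, lie near that median. Those of Cldn3, Krt18 and the second Cldn7 start are at 60.7%, 61.3% and 62.3%. A match is a description of the letters and not a bound site, and binding was not measured here.

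**Figure D4:**
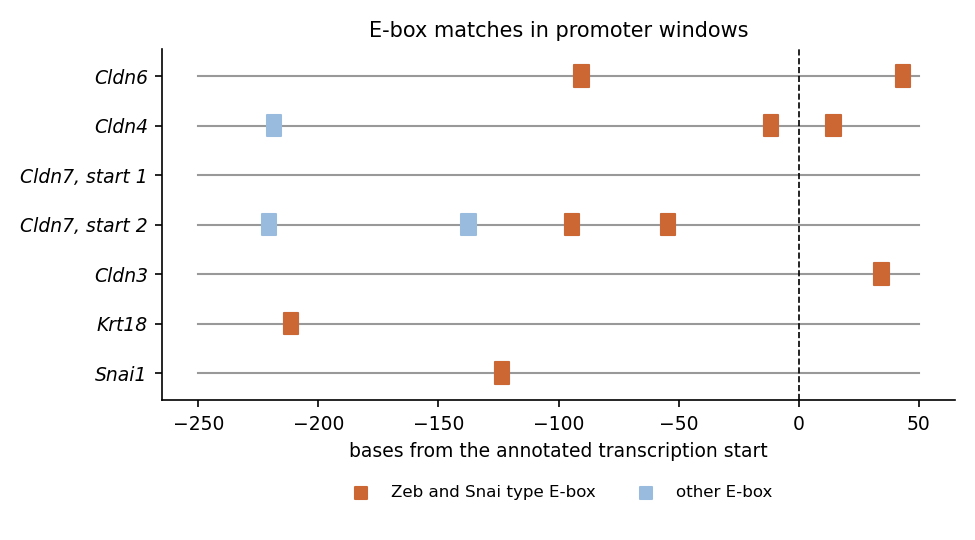
Positions of E-box matches (orange, CAGGTG on either strand; blue, other matches to CANNTG) in the promoter windows of 6 genes, in bases from the annotated transcription start (dashed line); Cldn7 has 2 annotated starts, and boxes are drawn 6 bases wide. Orange boxes stand in 6 of the 7 windows, at distances from -214 to +46.

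Of the other motifs searched on both strands, the general E-box CANNTG, which contains CAGGTG, was in windows of 6 of 6 genes, against 74.99% of all genes and 70.5% of listed genes with a window. The GC box GGGCGG was in a window of each claudin gene and not in those of Krt18 and Snai1, against 38.2% of all genes and 65.7% of listed genes. CCAAT was found in Snai1 alone, against 41.1% of all genes and 40.0% of listed genes, and TATAAA in none of the 6, against 15.7% and 11.9%. GGTCTC, part of the motif reported for Prdm14, was in windows of Cldn6, Krt18 and Snai1, 3 of 6 genes, against 18.4% of all genes and 21.9% of listed genes. The 6 genes were chosen with their lower values known, so nothing is read from the shares of these motifs. Matches to the rest of the Prdm14 motif were not searched, and binding of Prdm14 was not measured.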

How the data were processed

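The authors deposited 1 table of 886 genes selected as different, giving for each its p-value, q-value, log2 fold change and both conditions' mean TPM; per the file headers, TPM is a mean, over a number of values that is not given. The submitters' processing notes name Bowtie 0.12.2 and the genome build mm10; which program made the TPM and which test was run is not given in the sources used here. The authors' log2 values match the ratio of the 2 means to within 4.09e-11. All 886 IDs matched a GENCODE M21 symbol, and coordinates are 1-based on mm10.

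With 1 mean per condition there was no test. Folds, ranks and list counts were computed from the means, motifs were searched in RefSeq promoters, and the motif search was checked on simulated sequences. Coding sequences (GENCODE, longest per gene) were aligned globally with Biopython 1.88 (match 2, mismatch -1, gap -5 to open and -1 to extend); this replaced the planned protein comparison. Computation used pandas 2.3.3 and numpy 2.4.6 under Python 3.11.15, and plots matplotlib 3.10.9. The 8 genes, the 14 lists and the rule for naming genes were chosen with earlier results of these data known. The rule takes the 8 genes, Prdm14, Gadd45g and adjoining genes. It adds the listed gene nearest each in level, leaving out the 8 and genes with predicted-model or clone names. It also takes up to 4 members of each list by absolute log2 fold change (all where 5 or fewer are listed). TPM keeps no read number, so the depth and counting error are unknown.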

Additional observations from a re-analysis of the deposited data

How the results depend on the processing

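No paired analysis was possible because the table holds 1 mean per condition; for the same reason no replicate could be left out. With a pseudocount of 1 or 0.1 TPM, the log2 fold changes of the 8 genes kept their sign and moved by less than 1.5-fold. Counts moved where a threshold removed genes, as its construction must. With absolute log2 differences of 2 or more required, the 7 lower genes became 4, the 4 lower claudins 2, the epithelial list 3 lower and 0 higher, the tight junction list 1 lower and 0 higher, the stem cell markers 1 higher, the trophoblast markers 1 lower and 0 higher, and the primitive endoderm markers 2 lower. With the larger mean at least 10 TPM, the 7 became 4, the lower tight junction genes 1 and the lower primitive endoderm markers 1. A smaller mean of at least 1 TPM left these counts within 1.5 times, as did a q-value of at most 0.001, which was applied to the 8 genes and not to the lists. On the gene strand alone, CAGGTG was in windows of 4 of 6 genes, against 12.7% of all genes and 16.6% of listed genes. Identity over the shorter coding sequence, an alternative chosen after seeing the data, moved by less than 5 percentage points. The comparison of claudin proteins was not run.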

Other observations

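For each of the 8 genes, the listed gene nearest in level was found by distance on the log2 TPM scale over the 2 conditions. The nearest to Cldn6 was Zic2, a zinc finger transcription factor gene (137 TPM in Flag cells and 38.5 TPM in Prdm14 cells), and to Cldn4 Parp12, an ADP-ribosyltransferase gene (44.5 and 12.4 TPM). Psors1c2 lay nearest to Cldn7 (43.1 and 5.82 TPM), Gstt2, a glutathione transferase gene, to Krt18 (48.2 and 10.3 TPM), and Sp6, a zinc finger factor gene, to Cldn3 (8.76 and 2.93 TPM). The potassium channel gene Kcnj3 lay nearest to Cdh2 (7.96 and 2.97 TPM), the small GTPase gene Rem2 to Snai1 (5.89 and 1.34 TPM) and the microRNA host gene Mir124a-1hg to Zeb1 (2.004 and 10.9 TPM). The likeness rests on 2 values per gene.

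Beside Snai1, the next protein-coding gene in the direction of its transcription is Ube2v1, 64823 bases away on the other strand. It encodes a ubiquitin-conjugating enzyme variant and went the opposite way to Snai1, from 51.5 TPM in Flag cells to 212 TPM in Prdm14 cells, 4.12-fold higher. Of the 16 places next to one of the 8 genes, 4 are held by a listed gene: Mettl27, Cldn3, Cldn4 and Ube2v1. Cldn3 and Cldn4 are themselves among the 8 genes, each as the neighbour of the other. The share of such places over all genes is not given here, so nothing is read from this count.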
